A study of Mus musculus with 6 samples.

Results

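The lysophospholipid receptors measured here were 5 receptors for lysophosphatidic acid (LPA), Lpar1, Lpar2, Lpar3, Lpar4 and Lpar6, and 5 receptors for sphingosine 1-phosphate (S1P), S1pr1 to S1pr5. They were found as the non-control probes of the array whose gene name is one of these symbols, which gave 12 probes for 10 genes out of 30325 gene names on the array. Of the 10 genes, 6 entered the test because a probe of theirs was well above background on every array of a group, among 19060 genes tested in all. The other 4 genes, Lpar2, Lpar3, S1pr4 and S1pr5, were too dim for the test and are described by their values.

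LPA and S1P are small signalling lipids that act outside the cell through G protein-coupled receptors. LPA is made mainly by the secreted enzyme autotaxin (gene Enpp2), S1P is made inside cells by sphingosine kinases and then exported, and lipid phosphatases and the S1P lyase end the signal. The receptors couple to Gi, Gq and the Gna12 and Gna13 family, which reach actin and the serum response factor SRF. In peripheral nerve, LPA acting through Lpar1 is known to affect Schwann cell survival and shape, and S1pr1 is best known from endothelial cells and lymphocytes.

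The study compared sciatic nerves of mice labelled OGT_SCKO with those of littermate controls labelled Ctrl, all aged 1 month and on the background given as C56 BL6. OGT is O-GlcNAc transferase, the enzyme that attaches the sugar N-acetylglucosamine to proteins of the nucleus and cytoplasm, and the title of the series places the loss in Schwann cells, the glia that myelinate peripheral axons. Each group had 3 independent pools of nerves, with 1 array for each pool. The sources used here give neither the Cre driver nor how many animals made up a pool. No further treatment, injury or allele is named in the labels for either group.

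Each value is the log2 signal of a probe relative to the 75th percentile of its array, so it can be compared between arrays for 1 probe but not between probes. A gene was called changed when limma's Benjamini-Hochberg adjusted p over all 19060 genes was under 0.05, and the p-values measure only the spread between these pools. Whole nerve was measured, so fewer cells of a type and less RNA per cell cannot be told apart. The arrays detected between 59.0% and 65.2% of probes above background, and saturation was absent. Ogt itself was 2.42-fold lower in OGT_SCKO (log2 fold change -1.28, SE 0.13, limma adjusted p = 0.00117, n = 3 pools a group), with values of 0.46, 0.35 and 0.11 in Ctrl and -0.89, -1.01 and -1.01 in OGT_SCKO. All 3 OGT_SCKO arrays and Ctrl 2 lay on slide 1, and Ctrl 1 and Ctrl 3 on slide 2, so with the slide as a block only Ctrl 2 stands against the OGT_SCKO arrays.

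Among the 10 receptor genes, Lpar1 was called higher in OGT_SCKO, none was called lower, and 5 of the 6 tested were not called. Over all genes tested, 23.3% were called in either direction, 11.2% higher and 12.1% lower. The share of receptors called, 1 of 6, is near that background and says nothing particular about the receptors. The median log2 fold change of the 6 was 0.088, beside -0.075 over all genes.

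Lpar1 encodes the LPA receptor most often studied in Schwann cells. It was read by 1 probe of 60 bases at chr4:58499672-58499731 on the minus strand (mm9, per the file headers; exon and intron annotation was not used here). The start of that probe is shown because the only call among the receptors rests on it.
Lpar1 probe, bases from the 5′ end: caacctgctggctattgctatcgagaggca

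The Lpar1 signal was -0.38, 0.13 and 0.053 in Ctrl 1 to 3 and 0.62, 1.03 and 1.098 in OGT_SCKO 1 to 3. Every OGT_SCKO pool lay above every Ctrl pool, and the lowest of the OGT_SCKO pools was OGT_SCKO 1. The means were -0.063 ± 0.27 in Ctrl and 0.92 ± 0.26 in OGT_SCKO (SD, n = 3 pools each). Lpar1 was therefore 1.97-fold higher in OGT_SCKO (95% interval 1.44 to 2.71), which is 0.98 on the log2 scale with an SE of 0.19 (limma adjusted p = 0.0141). An exact permutation test of this 1 gene over the 6 pools gave two-sided p = 0.1, the smallest that 3 against 3 allows.

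The Lpar1 call did not hold under every setting. It ended with the slide as a fixed block (log2 fold change 0.78, limma adjusted p = 0.145), on slide 1 alone (0.78, limma adjusted p = 0.223) and without OGT_SCKO 3 (limma adjusted p = 0.0629), while its direction was the same under all 18 alternatives. Lpar1 overlaps the genes Mir3095 and Gm12577 in the RefSeq annotation, and whether the probe reads them was not tested.

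**Figure D1:**
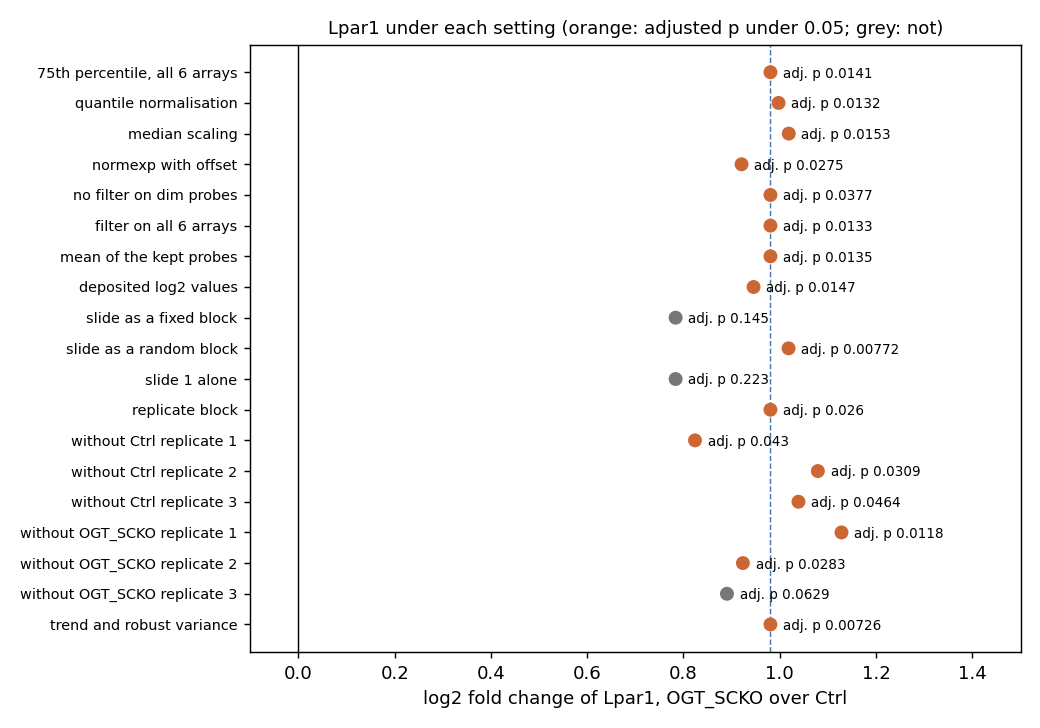
Log2 fold change of Lpar1, OGT_SCKO over Ctrl, on the x axis under the reported setting (dashed line, 0.98) and each of 18 alternatives (one line each), with the limma adjusted p beside each point. All points lie to the right of 0; the grey points, with an adjusted p of 0.05 or more, are the slide as a fixed block, slide 1 alone and the fit without OGT_SCKO 3.

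Lpar4 and Lpar6 belong to the purinergic-like branch of LPA receptors, which is related to the P2Y nucleotide receptors. Neither was called. Lpar4 was 0.31, 0.42 and 0.21 in Ctrl and 0.62, 0.49 and 0.29 in OGT_SCKO, with overlapping groups. Its log2 fold change was 0.15 (95% interval -0.15 to 0.46, limma adjusted p = 0.393), so a rise of up to 0.46 lies within the interval.

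Lpar6 lies within the gene Rb1 in the RefSeq annotation and was read by 2 overlapping probes, at chr14:73639469-73639528 and chr14:73639502-73639561 (mm9). The stretch that both probes hold is shown because the 2 probes are not independent readings; the 27 shared bases are in capitals.
Lpar6 probe A_51_P234728: tggGAACTATCTCTCCGGCTCCAACAAAAA
Lpar6 probe A_55_P1967069: GAACTATCTCTCCGGCTCCAACAAAAAata

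On the brighter of these probes, Lpar6 was 1.12, 1.40 and 1.26 in Ctrl and 1.37, 1.05 and 1.39 in OGT_SCKO. The groups overlapped fully, with a log2 fold change of 0.0090 (95% interval -0.32 to 0.34, limma adjusted p = 0.969). The other probe differed between the groups by 0.043 on the log2 scale with an SE of 0.13 (limma adjusted p = 0.824 over 24289 probes).

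The S1P receptors that could be tested were S1pr1, S1pr2 and S1pr3. S1pr1, a Gi-coupled receptor, was -1.02, -1.01 and -0.74 in Ctrl and -1.33, -0.84 and -0.71 in OGT_SCKO. Its log2 fold change was -0.039 (95% interval -0.49 to 0.41, limma adjusted p = 0.897). S1pr3, which couples more broadly, was 3.26, 3.40 and 3.17 in Ctrl and 3.66, 2.91 and 3.33 in OGT_SCKO. Its pools spread more in OGT_SCKO (SD 0.37) than in Ctrl (SD 0.12), a difference in spread that was not tested, and its log2 fold change was 0.022 (95% interval -0.45 to 0.49, limma adjusted p = 0.945).

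S1pr2, the S1P receptor that couples most strongly to Gna12 and Gna13, had the largest difference of the S1P receptors tested but was not called. Its signal was -2.16, -2.69 and -2.38 in Ctrl and -2.25, -1.64 and -1.90 in OGT_SCKO. OGT_SCKO 1 lay below Ctrl 1, so the groups overlapped, while OGT_SCKO 2 and 3 lay above every Ctrl pool. The log2 fold change was 0.48 (SE 0.20, limma adjusted p = 0.131), a 1.40-fold difference. Under the alternatives it ranged from 0.34 to 0.76 and was not called in any.

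**Figure D2:**
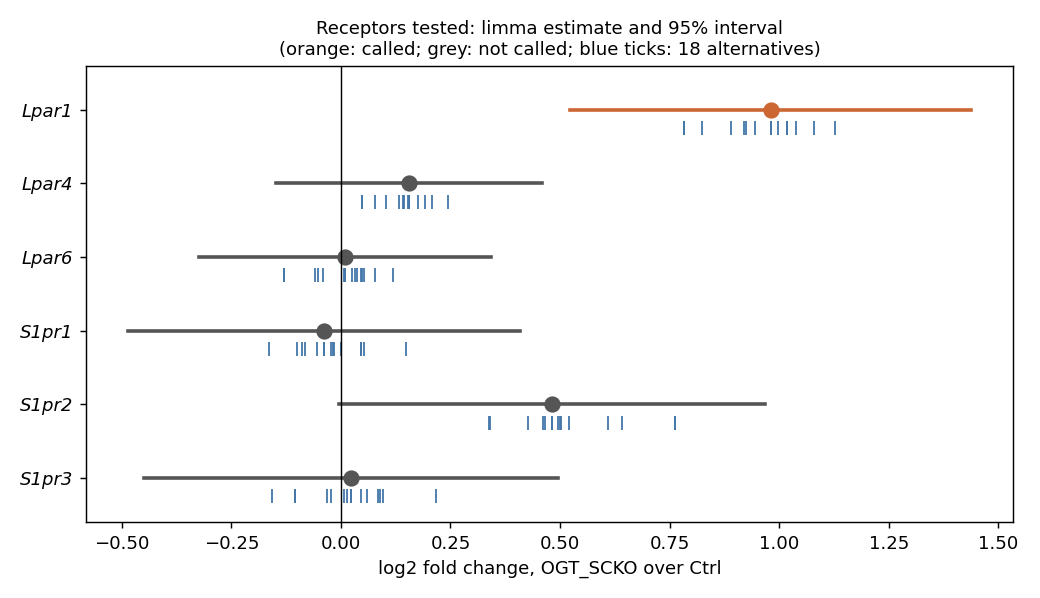
Limma log2 fold change, OGT_SCKO over Ctrl (x axis), of the 6 receptors tested, with the 95% interval as a bar; blue ticks below each gene are the values under 18 alternatives. The interval of Lpar1 (0.52 to 1.44, orange) lies above 0, and those of the 5 others (grey) include 0.

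The 4 dim genes had signals near background. Lpar2, an LPA receptor found widely in lymphoid tissue, was read by 2 probes that disagreed. Their first bases are shown because these places in the gene gave different readings.
Lpar2 probe A_52_P460537, bases from the 5′ end: cctcacaagtttggaccactaatatgtttt
Lpar2 probe A_55_P1997591, bases from the 5′ end: actcactggtcaatgcagtggtatattcct

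Probe A_52_P460537, at chr8:72354818-72354877 (mm9), gave -7.36, -6.78 and -7.46 in Ctrl and -4.98, -4.75 and -4.66 in OGT_SCKO. It was well above background on 0 of 3 Ctrl arrays and on 2 of 3 OGT_SCKO arrays, and the scanner software had put a surrogate value in place of all 3 Ctrl signals. The size of the difference is therefore not measured. The OGT_SCKO mean was 1.20-fold above the mean of the lowest signals that counted as above background on the 3 Ctrl arrays. On Ctrl 2 that lowest signal was -4.64, above all 3 OGT_SCKO values. The 1.20-fold is thus not a lower bound, and a rise against Ctrl 2 is not assured. No test of this probe is given, because its Ctrl values are surrogates. Probe A_55_P1997591, at chr8:72350307-72350366, gave -6.09, -4.26 and -6.12 in Ctrl and -5.68, -6.35 and -5.49 in OGT_SCKO. Only Ctrl 2 was above background on it, and the groups overlapped.

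Lpar3, the LPA receptor known from implantation of the embryo, was above background on 1 of 3 Ctrl and 2 of 3 OGT_SCKO arrays. Its values were -5.62, -4.80 and -4.75 in Ctrl and -5.13, -4.22 and -4.04 in OGT_SCKO, which overlapped. S1pr4, a receptor of blood cells, was above background on 1 of 3 Ctrl and 2 of 3 OGT_SCKO arrays, with values from -5.34 to -5.24 in Ctrl and from -5.41 to -4.95 in OGT_SCKO. S1pr5, known from oligodendrocytes and natural killer cells, was above background on 0 of 6 arrays, and all 6 signals were surrogates.

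**Figure D3:**
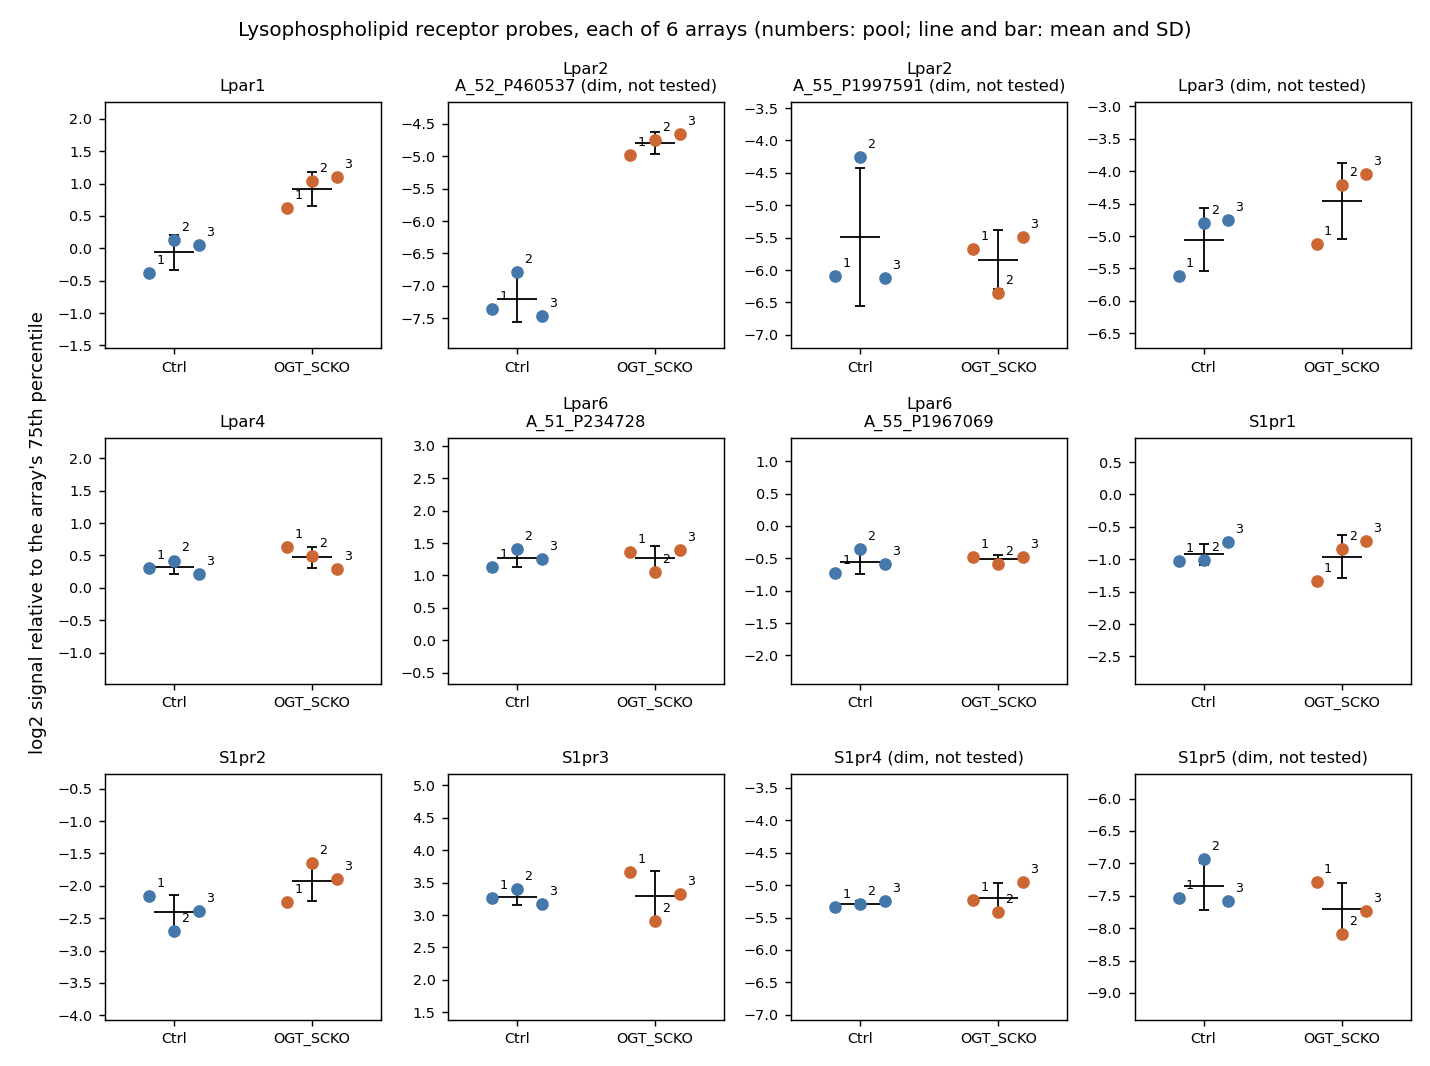
Log2 signal relative to the 75th percentile of the array (y axis) for each of the 12 receptor probes in 3 Ctrl and 3 OGT_SCKO pools, numbered by pool; the line and bar are the mean and SD, and every panel spans the same height in log2 units. The groups are separate for Lpar1 and for Lpar2 probe A_52_P460537, whose Ctrl signals are surrogates, and overlap for the other 10 probes. The share of all probes on the array with separate groups is not given here, so this count describes the panels only.

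Within each array, Lpar1 was compared with single other receptors, which removes any shift common to the whole array. The median of the other 5 tested receptors was the value of Lpar4 on every array. Lpar1 minus this median is therefore Lpar1 minus Lpar4, and does not set Lpar1 against the receptors as a group. It was -0.69, -0.29 and -0.16 in Ctrl and -0.0013, 0.54 and 0.81 in OGT_SCKO. The difference between the group means was 0.83 on the log2 scale (exact permutation p = 0.1). Set against S1pr2 alone, the difference was 0.50 and the groups overlapped (exact permutation p = 0.2).

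The genes whose signal followed Lpar1 most closely over the 6 arrays were Nob1, Pard6g and Shcbp1l, with Pearson r of 0.998, 0.996 and 0.995. For S1pr2 they were Zfp598, Prelid2 and Scfd1, with r of 0.998, 0.997 and 0.997. These are the highest among the tested genes with a gene symbol and values on all 6 arrays, with clone and predicted-gene names left out. The 6 arrays also differ by group, and the correlations are given as a description.

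The list of LPA production holds enzymes that make LPA and the acyltransferases that use it. It was measured for 9 of 11 genes, of which 2 were called higher and 4 lower, with a median log2 fold change of -0.44. Over all genes tested, 11.2% were called higher and 12.1% lower, and the counts of this and the later lists are to be read beside these shares. No list was tested as a set, and the lists were chosen with earlier results of these data known. Enpp2, which encodes autotaxin, was 3.91, 4.003 and 4.11 in Ctrl and 3.32, 3.19 and 3.20 in OGT_SCKO. The groups were well apart, and Enpp2 was 1.71-fold lower in OGT_SCKO (log2 fold change -0.77, SE 0.11, limma adjusted p = 0.00429). With the slide as a block, its limma adjusted p was 0.0586.

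Among the other called genes of this list, Pla2g4a, a cytosolic phospholipase that releases fatty acids and leaves lysophospholipids, rose 3.13-fold (limma adjusted p = 0.00184). Pla1a, a phosphatidylserine-specific phospholipase, rose 2.56-fold (limma adjusted p = 0.00331). Agpat1 and Agpat2, which acylate LPA to phosphatidic acid and so consume it, fell 3.67-fold and 1.41-fold (limma adjusted p = 0.00326 and 0.0247). Agk, a kinase that can make LPA in mitochondria, fell 1.35-fold (limma adjusted p = 0.0351).

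The Agpat2 call ended without Ctrl 2, Ctrl 3 or OGT_SCKO 3 and with the slide as a block.

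S1P production was measured for 6 of 7 listed genes, and 1 was called, Sphk1. A second gene was called, lower in OGT_SCKO, under 5 alternatives (quantile and median scaling, the deposited values, trend and robust variance, and without OGT_SCKO 1). Among the genes not called in the reported setting, Acer3, an alkaline ceramidase, lay closest to the threshold (log2 fold change -0.59, limma adjusted p = 0.0527). Sphk1, the sphingosine kinase that growth factors induce, was -0.22, 0.10 and 0.18 in Ctrl and 1.85, 1.63 and 2.32 in OGT_SCKO. All OGT_SCKO pools lay far above all Ctrl pools, and Sphk1 was 3.77-fold higher (log2 fold change 1.91, SE 0.21, limma adjusted p = 0.00168). Both of its kept probes were called, and it was also called with the slide as a block (limma adjusted p = 0.0309). Sphk2, the second sphingosine kinase, had a log2 fold change of -0.14 (95% interval -0.49 to 0.21, limma adjusted p = 0.499). Within each array, the change of Sphk1 exceeded that of Sphk2 by 2.06 on the log2 scale (exact permutation p = 0.1).

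The promoter windows of Sphk1 and of the receptors were searched because the title of the series names JUN, a member of the AP-1 factors. The AP-1 site was searched as TGANTCA and the cAMP response site as TGACGTCA, each on both strands, in RefSeq windows from 250 bases before to 50 after a start (GRCm38.p6). Of 32851 such windows, 7.81% held the AP-1 letters and 1.79% the cAMP response letters. The windows covered 9 of the 10 receptors, and S1pr1 had no entry. An AP-1 match lay at 1 place in 2 of 5 Sphk1 windows and in 1 receptor window, that of Lpar2. A cAMP response match lay in the S1pr2 window, which is on the minus strand. Its letters read the same on both strands. TEAD letters, GGAATG, also searched on both strands, lay in 14.7% of windows. They were found in 1 receptor window, that of Lpar6, as the reverse complement, and in 1 Sphk1 window. No window of Lpar1 held any of the 3 motifs. The receptor matches and the AP-1 match of Sphk1 are shown with the motif in capitals, and a match is a description of letters, not of binding.
Sphk1, AP-1, chr11:116531776-116531805: gagcgtgtcgcTGAGTCAccttctcggaag
Lpar2, AP-1, chr8:69822333-69822362: caactgccaggTGACTCAgccccaaaggcg
S1pr2, cAMP response, chr9:20976956-20976985: taagagagctgTGACGTCAcgcggccgtga
Lpar6, TEAD, chr14:73237857-73237886: cctcctaggtaCATTCCcagcagacacatt

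Enzymes that break down LPA or S1P were measured for 11 of 15 listed genes, of which 2 were called higher and 1 lower. Sgpl1, the S1P lyase that destroys S1P irreversibly, rose 1.59-fold in OGT_SCKO (limma adjusted p = 0.0145). Plpp5, a lipid phosphate phosphatase, rose 1.37-fold and Acp6, an LPA phosphatase of mitochondria, fell 1.26-fold (limma adjusted p = 0.0295 and 0.0428). Plpp1 and Plpp3, the main phosphatases of extracellular LPA, were not called, with log2 fold changes of -0.18 (limma adjusted p = 0.342) and -0.055 (limma adjusted p = 0.834). The Sgpl1 call ended without Ctrl 2, Ctrl 3 or OGT_SCKO 3, the Plpp5 call without any 1 of the Ctrl pools or OGT_SCKO 3, and the Acp6 call without any 1 of the 6 pools.

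Of 8 transporters and carriers, 1 was called higher and 1 lower. Apom, the apolipoprotein that carries S1P in blood, was 2.45-fold higher (limma adjusted p = 0.00384). It was above background on 2 of 3 Ctrl arrays, so it entered the test through the OGT_SCKO arrays alone and was not tested with the filter on all 6 arrays, and with normexp background correction its limma adjusted p was 0.0811. Normexp also ended the calls of Acp6, Gpr132 and Grk3. Abca7, a lipid transporter, fell 1.64-fold (limma adjusted p = 0.0103), a call that ended without OGT_SCKO 3 (limma adjusted p = 0.0534). Spns2, the main exporter of S1P from cells, had a log2 fold change of 0.29 (limma adjusted p = 0.208).

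Other receptors for lysophospholipids and related lipids were measured for 9 of 14 listed genes, of which 2 were called higher, 1 of them tested through the OGT_SCKO arrays alone, and 0 lower by limma. Gpr132, a receptor of this group, rose 1.64-fold (limma adjusted p = 0.0344), a call that ended without any 1 pool except OGT_SCKO 3. Lpar5, an LPA receptor outside the set described here, was not called (log2 fold change -0.49, limma adjusted p = 0.0801), though its groups did not overlap. It was called with the slide as a random block (limma adjusted p = 0.0446) and without Ctrl 2 (limma adjusted p = 0.0479), and its log2 fold change was -0.19 with the slide as a fixed block.

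**Figure D4:**
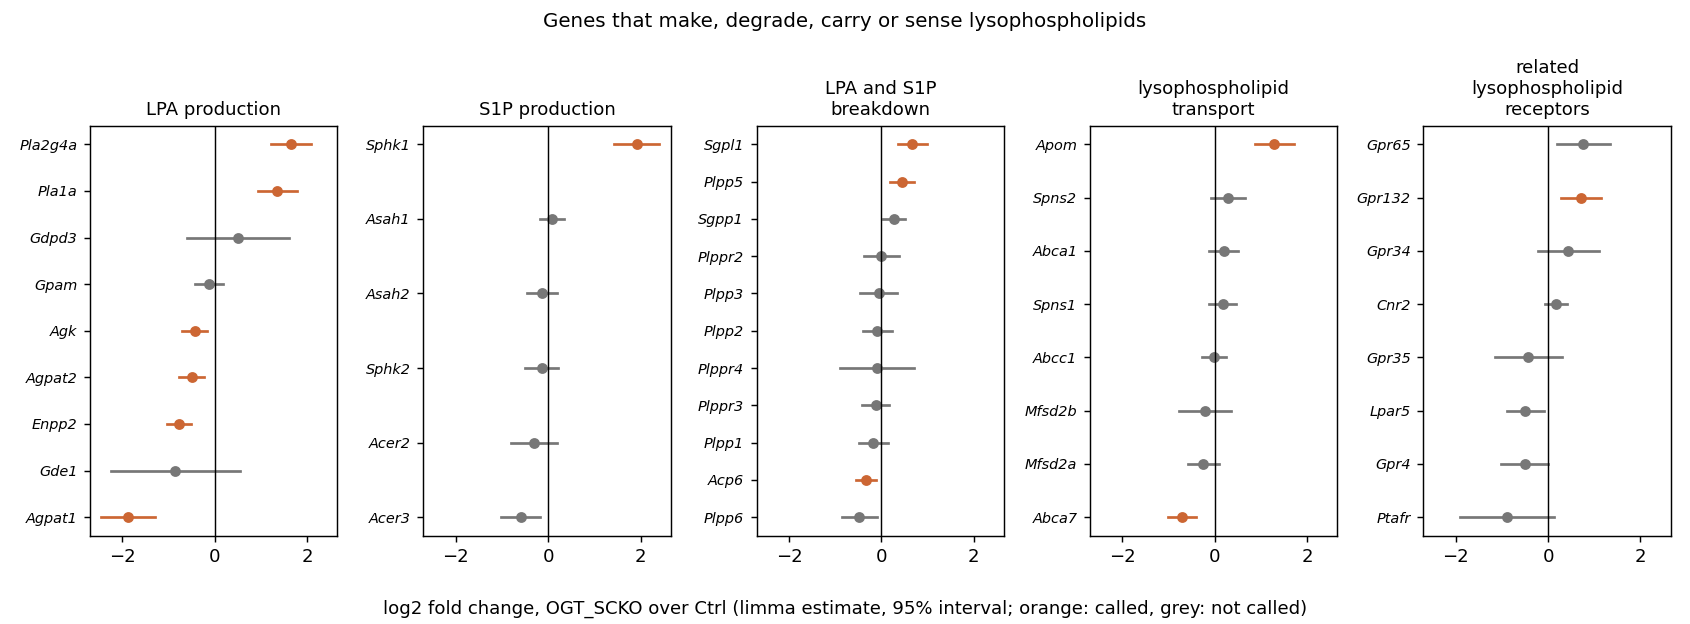
Limma log2 fold change, OGT_SCKO over Ctrl (x axis), with 95% intervals, of genes measured in 5 lists: LPA production, S1P production, breakdown, transport and related receptors; orange marks an adjusted p under 0.05. Sphk1 (1.91) is the one S1P production gene in orange, and Enpp2 (-0.77) and Agpat1 (-1.88) lie below 0 in the LPA production list (1 gene of the related receptors is not drawn).

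Downstream of the receptors, 21 of 21 listed genes of G proteins and the exchange factors they drive were measured, and 1 was called higher and 1 lower. Gna12, which couples the receptors to the actin cytoskeleton, fell 1.43-fold (limma adjusted p = 0.0119), a call that ended without Ctrl 3 or OGT_SCKO 3 and with the deposited values (limma adjusted p = 0.0529). Gna13, its close relative, had a log2 fold change of 0.26 (limma adjusted p = 0.164) on its brightest probe and was not called, though its groups did not overlap. All 4 of its kept probes were higher in OGT_SCKO, and 1 of the 4 was called in the fit of single probes. Gnaz, a Gi-family subunit, rose 1.498-fold (limma adjusted p = 0.0159), a call that ended without Ctrl 1, Ctrl 3 or OGT_SCKO 3 and with the mean of its 2 probes. Gnai2 had a log2 fold change of 0.097 (limma adjusted p = 0.693).

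Genes known as targets of SRF and its cofactor MRTF were all measured, 19 of 19, with 2 called higher and 4 lower. Cnn1, a smooth muscle calponin, was -5.50, -5.15 and -4.59 in Ctrl and -1.44, -1.43 and -1.48 in OGT_SCKO. It was 12.4-fold higher (log2 fold change 3.63, limma adjusted p = 0.000241), and 5.91-fold higher with normexp correction. Cnn1 was above background on 1 of 3 Ctrl arrays and entered the test through the OGT_SCKO arrays alone, so the size of its fold is not well measured. Ccn1, a secreted matricellular protein, rose 2.17-fold (limma adjusted p = 0.00344). Cnn2, a calponin of non-muscle cells, fell 1.99-fold and Myl9, a myosin light chain, fell 1.89-fold (limma adjusted p = 0.00855 and 0.00983). Srf itself fell 1.38-fold (limma adjusted p = 0.0245), a call that ended without any 1 Ctrl pool or OGT_SCKO 3 and with the mean of its 2 probes, and Fhl2 was the sixth called. Cnn1 and Cnn2 thus moved in opposite directions, and the median over the list was 0.018.

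Of the genes that regulate receptor trafficking and signal length, 13 of 14 were measured, with 3 called higher and 1 lower. Rgs16, which shortens Gi and Gq signals, rose 2.38-fold (limma adjusted p = 0.00124), and Rgs2, which acts on Gq, rose 1.48-fold (limma adjusted p = 0.0142). Grk3, a kinase that desensitises receptors, rose 1.51-fold (limma adjusted p = 0.0366). Klf2, a transcription factor known to drive S1pr1 in lymphocytes and endothelium, fell 2.04-fold (limma adjusted p = 0.00157), while S1pr1 itself was not called. The Rgs2 call ended without Ctrl 1, Ctrl 3 or OGT_SCKO 3, and the Grk3 call without any 1 pool except OGT_SCKO 2.

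Over the 8 lists of pathway genes, 96 of 109 were measured, 14 were called higher and 12 lower, and the median log2 fold change was -0.0053. This is 27.1% called, beside 23.3% over all genes. By list, the share called ran from 9.52% for the G proteins and exchange factors to 66.7% for LPA production. The last list also holds acyltransferases that use LPA. Because the lists were chosen with earlier results of these data known, the shares are a description and not a fair comparison with all genes. Counting Lpar1 and Ogt with the 24 called pathway genes that the naming rule picked, 9 of 26 were also called with the slide as a block: Pla2g4a, Pla1a, Agpat1, Sphk1, Apom, Cnn1, Rgs16, Klf2 and Ogt. On slide 1 alone 22 of the 26 calls ended, and 14 of 26 passed in all 6 fits that left out 1 pool.

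Markers of the cell types that carry these receptors moved with the groups as follows, and their part in the results above was not tested. The counts called are to be read beside the 23.3% called over all genes. Of 10 Schwann cell markers, Ngfr and Foxd3 were called higher and S100b lower, with a summed signal, relative to the 75th percentile, of 325 to 428 in Ctrl and 220 to 349.5 in OGT_SCKO. Of 11 measured endothelial markers, 2 were lower (Vwf and Egfl7) and 0 higher by limma. The 2 kept probes of Vwf had opposite signs, and 1 of them was called. The summed signal, which weighs the brightest markers most, was 36.4 to 40.5 in Ctrl and 24.5 to 30.6 in OGT_SCKO. Klf2 and S1pr1 are both expressed in endothelium. Of 10 mural markers, 2 were higher (Cnn1 among them) and 1 lower, with sums of 58.8 to 74.9 and 37.5 to 63.4. Of 10 fibroblast markers, 1 was lower, with sums of 412 to 647 and 277 to 484.

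Of 7 measured perineurial markers, 2 were lower, with sums of 47.9 to 63.7 and 32.7 to 39.5. Of 12 macrophage markers, 1 was higher, with sums of 81.3 to 101 in Ctrl and 68.8 to 97.7 in OGT_SCKO. Of 12 T, B and NK cell markers, 8 were measured and 1 was called higher, Klrb1c, which was above background on 0 of 3 Ctrl and 3 of 3 OGT_SCKO arrays and so was tested through OGT_SCKO alone. The list had sums of 6.53 to 7.86 and 3.23 to 7.84, while Cd3g, Cd8a, Ms4a1 and Ncr1 were not above background. Adipocyte markers fell for 4 of 7 measured and skeletal muscle markers for 5 of 6, with summed signals of 3.56 to 16.1 against 1.46 to 3.95 for adipocytes and of 4.43 to 5.63 against 1.70 to 2.99 for muscle. Of those 4 adipocyte genes, 3 were above background on fewer than 3 OGT_SCKO arrays and were tested through the Ctrl arrays alone. All 10 Schwann cell markers listed were measured in these nerves.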

How the data were processed

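Total RNA of 6 pools was labelled with Cy5 and hybridised to Agilent mouse arrays, 1 colour, 1 pool an array. Per the file headers, the authors' scanner files hold background-corrected processed intensity from Agilent Feature Extraction 11.5.1.1 (per the submitters' processing notes), and the deposited value table holds log2 values with a median of 9.13 in every column; these correlated at 0.996 or more with the log2 processed signal of the same array, and their exact normalization and centring are not given in the sources used here. Here log2 processed intensity minus each array's 75th percentile was used. Of 43020 non-control spots, outlier spots were left out (313 probes had one), spots of a probe were averaged (39429 probes), and 24290 probes were kept, each well above background on every array of a group. The gene took its kept probe with the highest mean. Symbols came from the array files, and 1711 were updated through accessions in RefSeq. Coordinates of probes are mm9.

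The 3 Ctrl and 3 OGT_SCKO pools were compared with limma 3.58.1 in R 4.3.3 (lmFit, eBayes, no covariate, Benjamini-Hochberg adjusted p under 0.05), tested on simulated data first. Alternatives were quantile and median scaling, normexp with an offset of 50, other filters and probe rules, the deposited values, the slide and the replicate number as blocks, trend and robust variance, and leaving out each pool. All 10 receptors are named, and from each pathway list up to 5 called genes with the smallest p and set main enzymes, carriers or couplers; Agk, Fhl2, Acer3 and the few markers named as called are named beyond that, after their values were seen. For 1 called gene of the related receptors, values are not reported here. Members and lists were chosen with earlier results of these data known. The pathway lists were LPA production, LPA and S1P breakdown, S1P production, transport, related receptors, G proteins and exchange factors, SRF and MRTF targets, and trafficking regulators; the marker lists are those described with the report. The number of arrays limits the precision.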

Additional observations from a re-analysis of the deposited data

How the results depend on the processing

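The count of called genes was 4438 and fell to 2722 with normexp, 2629 without the filter on dim probes, 1224 with the slide as a fixed block and 406 on slide 1 alone, and ranged from 1983 (without OGT_SCKO 3) to 5582 (without OGT_SCKO 1) with 1 pool left out; it was 2451, 2627 and 2099 without Ctrl 1, 2 and 3. The count of called receptors was 0 with the slide block and on slide 1 alone, and 0 (without OGT_SCKO 3) to 2 (without OGT_SCKO 1) with 1 pool left out; the second call, Lpar2, rests on surrogate Ctrl signals and is not taken as a result. Called pathway genes, 26 in the report, were 15 without the filter, 8 with the slide block, 4 on slide 1 alone, and 14 (without Ctrl 3 or without OGT_SCKO 3) to 26 with 1 pool left out. The calls of 9 of the 26 named genes ended without the filter. The deviations of same-numbered pools had correlations of -0.27, -0.53 and 0.06, beside -0.41 to 0.46 for pools of different number. With 3 pools a group, these correlations cannot show whether the numbers pair the pools. With the replicate number as a block, 1475 genes and 11 pathway genes were called, and Lpar1 kept its call (log2 fold change 0.98, limma adjusted p = 0.026), while 13 of the 26 named calls ended.

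Genes near 0 changed sign, and none of these was called. With the slide as a block and on slide 1 alone, Lpar6 was -0.13, S1pr1 0.046, S1pr3 -0.10, Plpp3 0.12 and Gnai2 -0.037. S1pr3 was -0.022 with normexp, Plpp1 0.098 as the mean of its probes, and Plpp3 0.045 with quantile scaling and 0.044 from the deposited values. With 1 pool left out, Lpar6 ranged from -0.060 to 0.12, S1pr1 from -0.16 to 0.15, S1pr3 from -0.16 to 0.22, Plpp3 from -0.17 to 0.092 and Gnai2 from -0.020 to 0.26. The cause of these changes was not tested. On slide 1 alone the single Ctrl pool is assumed to vary like the OGT_SCKO pools. Probes near background limit what can be said of Lpar2, Lpar3, S1pr4 and S1pr5.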
